A study of Mus musculus with 52 samples.

Results

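The response to rivenprost, an agonist of the prostaglandin E2 receptor EP4, was compared between haematopoietic stem cells (HSC) and bone marrow stroma of irradiated mice. The 16 libraries with rivenprost or its vehicle were taken from the 52 libraries of the series, and the genes compared were the 12991 present in both count tables, of 13566 for HSC and 15168 for stroma. For each gene the rivenprost minus vehicle change in log2 units was taken in each fraction, and the quantity reported is the HSC change minus the stroma change. Male and female mice received vehicle or rivenprost 30 min before total body irradiation with 853 cGy, and marrow was harvested 1 h after it. The vehicle mice were thus irradiated as well. The dose of rivenprost, the strain and the age are not given in the sources used here. There were 4 mice in each of the 4 groups, both sexes equally, each mouse gave 1 library, and the HSC and stroma libraries carry different animal numbers. HSC were sorted by flow cytometry with the SLAM-LKS phenotype, and stroma was the marrow fraction left by magnetic enrichment for CD45- Ter119- cells, a mixture of cell types. Total counts per library ran from 34834088 to 49173110 in HSC and from 47278527 to 70799634 in stroma, and the second vehicle HSC library had the lowest median rank correlation with its fraction, 0.926.

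EP4 couples to the stimulatory G protein, which activates adenylyl cyclase. The cyclic AMP (cAMP) formed activates protein kinase A, and the kinase phosphorylates the transcription factor CREB, which binds the cAMP response element and switches on a fast set of target genes. The set includes genes that damp the signal again, among them Crem, cAMP phosphodiesterases and salt-inducible kinases. In marrow, prostaglandin E2 is known to act on stem cells and on the stromal cells around them.

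Promoters are shown for 4 genes that rose with rivenprost in different fractions. Each holds a site marked below, and whether such a site acts in the response was not tested. The 4 are examples and do not stand for their groups, whose counts are given after the sequences. They are Nr4a1 and Hk2, which rose in both fractions, Lmcd1, which rose in HSC, and Nr4a3, which rose in stroma with no called difference. The sequences are RefSeq's, on GRCm38.p6, 5′ to 3′ on the gene's strand, and lie within the 250 bases before the annotated start. Capitals mark the short site TGACG on either strand, and in Lmcd1 the full cAMP response element TGACGTCA, which contains the short site on both strands.
Nr4a1, chr15:101266596-101266695, plus strand: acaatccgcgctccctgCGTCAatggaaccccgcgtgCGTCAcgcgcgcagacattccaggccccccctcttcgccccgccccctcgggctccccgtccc
Hk2, chr6:82774455-82774550, minus strand: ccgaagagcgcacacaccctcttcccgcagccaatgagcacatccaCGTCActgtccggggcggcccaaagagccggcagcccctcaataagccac
Lmcd1, chr6:112273582-112273681, plus strand: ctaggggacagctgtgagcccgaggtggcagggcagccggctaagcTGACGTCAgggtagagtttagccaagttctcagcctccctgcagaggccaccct
Nr4a3, chr4:48045055-48045154, plus strand: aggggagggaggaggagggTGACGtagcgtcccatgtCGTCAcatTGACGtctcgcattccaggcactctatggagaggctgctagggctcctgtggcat

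A promoter was matched for 9887 of the 12991 shared genes. Within the 250 bases, 30.6% of those genes held a short site and 3.02% the full element. Of the 16 genes called in both fractions 11 were matched, and 5 (45.5%) held a short site and 0 the full element. Crem was not among the 11. Among genes called in HSC alone, 21 of 44 matched genes (47.7%) held a short site and 1 (2.27%) the full element. For genes called in stroma alone the numbers were 41 of 99 (41.4%) and 9 (9.09%). A gene could have more than 1 window and was counted if any window held the site. The mean number of windows was 1.27 over all matched genes and 1.18 for genes called in both fractions. It was 1.5 for genes called in HSC alone and 1.28 for stroma alone. These are counts of letters in a short window, described without a test. Ramp3, Plaur, Ifngr1, Vdr, Sdc4 and Socs3, described below, had no short site in that window.

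The receptors were measured in both fractions, in CPM (counts scaled to a common, adjusted library size). The tables were scaled separately, so a level in HSC and one in stroma are set side by side here without a test. Ptger4, which encodes EP4, stood at 61.1, 111.9, 81.8 and 68.97 CPM in the vehicle HSC libraries and at 65.6, 37.9, 60.8 and 49.3 with rivenprost. In stroma it stood at 26.5, 32.1, 19.4 and 22.7 CPM with vehicle and at 27.04, 76.4, 81.3 and 30.2 with rivenprost. The groups overlapped in both fractions, and the change was -0.67 in HSC (edgeR adjusted p = 0.827) and 1.00 in stroma (adjusted p = 0.0976). The difference between fractions was -1.51 and was not called (adjusted p = 0.232). Ptger3, the receptor that lowers cAMP, averaged 116.6 CPM in vehicle HSC and 6.38 CPM in vehicle stroma, with changes of -0.27 and 0.02. Ptger2, the other receptor that raises cAMP, was low in both fractions, at 0 CPM in 3 of 4 vehicle HSC libraries and 2.03 to 3.03 CPM in vehicle stroma. None of the 4 prostaglandin E2 receptor genes was called in either fraction or for the difference.

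A gene was called at a Benjamini-Hochberg adjusted p under 0.05 in edgeR's quasi-likelihood test, across all genes of the comparison. Rivenprost changed 67 shared genes in HSC (0.516% of 12991), of which 54 rose and 13 fell. In stroma it changed 147 shared genes (1.13%), of which 33 fell and the rest rose (0.878%). The same 16 genes were called in both fractions, all in the same direction, which is 0.123% of shared genes, 23.9% of the HSC list and 10.9% of the stroma list. That number was 6 to 17 with 1 library left out, 6 to 8 without vehicle replicate 2 or 3 or rivenprost replicate 3 of stroma, 33 by DESeq2 and 1 in fits of the 8 libraries of each fraction. No gene was called in both fractions in opposite directions. The difference between the 2 changes, fitted on the 16 libraries, was called for 35 genes (0.269%), 29 with the higher change in HSC (0.223%) and 6 with the lower (0.0462%), while 939 genes (7.23%) had an unadjusted p under 0.05. That count depends on how the spread of the fractions is modelled: separate fits per fraction with combined standard errors called 11 genes, limma voom with weights per fraction called 7, a block for runs of consecutive animal numbers called 6, and DESeq2 called 221. Leaving out 1 stroma library gave 9 to 21 genes, 9 without the second vehicle library, and leaving out 1 HSC library gave 41 to 75, 75 without the third vehicle library. Over the whole stroma table, 172 genes were called, against 49 to 95 when vehicle replicate 1, 2 or 3 or rivenprost replicate 2 or 3 was left out and 2 in the fit of the 8 libraries alone. The HSC count was 41 or 42 without vehicle replicate 3 or rivenprost replicate 3 or 4.

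**Figure D1:**
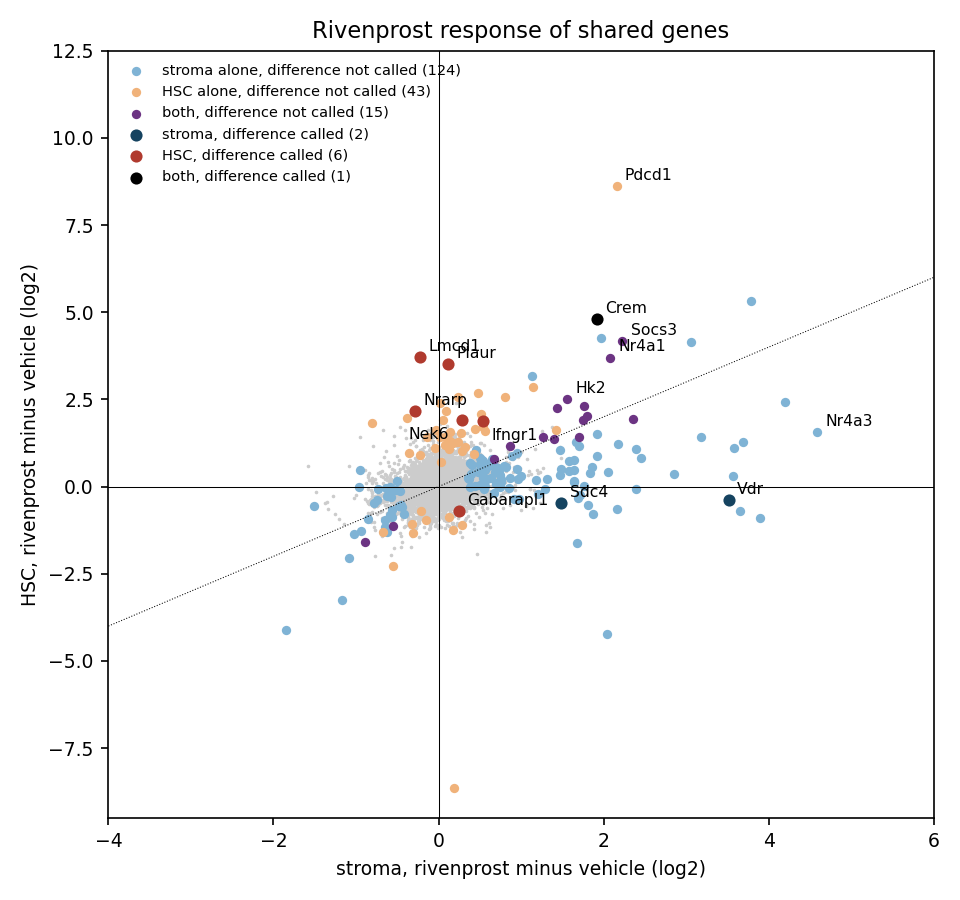
Rivenprost minus vehicle change (log2) in HSC (vertical) against stroma (horizontal), 1 point per shared gene. Grey points are the 9062 genes at 5 CPM or more in all 4 groups, coloured points are called genes by class with their number, genes with 0 counts in a whole group are left out, and the dotted line marks equal changes. Lmcd1, Plaur and Nrarp lie high near a stroma change of 0, Vdr and Nr4a3 lie far to the right, and most genes called in both fractions lie above the dotted line, while Vegfa, S1pr1, Pde4d, Zfp322a and Trmt1l lie below it.

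Genes were sorted by fraction and by the test of the difference. Of the 16 genes called in both fractions, 15 had no called difference and 1, Crem, rose more in HSC. A further 7 genes were called in HSC with the difference called as well, and 2 in stroma. The remaining calls, 44 in HSC and those left of the 147 in stroma, had no called difference, so a response confined to 1 fraction was not shown for them. The other 25 genes with a called difference were called in neither fraction.

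Ramp3 showed the greatest contrast among the 7. It encodes a protein that partners calcitonin-family receptors and alters which peptide hormone they bind. It had 0 counts in all 4 vehicle HSC libraries and 90.8, 106, 96.4 and 80.2 CPM in the 4 rivenprost HSC libraries. In stroma it had 1.12, 1.06, 0.778 and 0.952 CPM with vehicle and 0.859, 2.07, 1.69 and 1.27 with rivenprost, and these groups overlapped. Against a floor of 3 counts over the vehicle group, Ramp3 was 4949-fold higher with rivenprost in HSC, and 1.53-fold higher in stroma. With that floor the difference was 11.66 log2 units, which is no lower bound. The difference was called without the floor (edgeR adjusted p = 3.49e-06) and in each of the 26 other settings run.

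Lmcd1, a LIM-domain cofactor of transcription whose promoter is printed above, had 10.03, 8.66, 3.30 and 15.4 CPM in vehicle HSC and 85.8, 131.7, 175 and 116.3 CPM with rivenprost. In stroma it had 18.7, 16.1, 14.6 and 13.2 CPM with vehicle and 13.5, 14.8, 13.4 and 11.9 with rivenprost. The HSC groups were far apart and the stroma groups overlapped. The change was 3.72 in HSC (SE 0.48, adjusted p = 0.000221) and -0.22 in stroma (95% interval -0.71 to 0.28), a difference of 4.08 (SE 0.49, adjusted p = 0.00472), called in 25 of 26 other settings and lost with the block for animal numbers.

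Plaur encodes the urokinase receptor, a membrane protein that localises plasmin formation and is active in cell migration. It had 25.99, 18.3, 20.6 and 11.7 CPM in vehicle HSC against 153, 193, 303 and 195 with rivenprost. Stroma held 41.6, 16.3, 41.6 and 15.6 CPM with vehicle and 40.3, 25.3, 35.4 and 23.02 with rivenprost. The HSC groups did not overlap, and the stroma rivenprost values fell inside the range of the vehicle values. The difference was 3.42 (SE 0.51, adjusted p = 0.0165), and it missed the threshold by limma voom (adjusted p = 0.142).

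Ifngr1, the ligand-binding chain of the interferon gamma receptor, had 221, 181, 153 and 176 CPM in vehicle HSC and 668, 638, 655 and 737 with rivenprost. In stroma it had 110, 140.5, 137.1 and 160 CPM with vehicle and 216, 196, 193 and 194 with rivenprost. The groups did not overlap in either fraction. The change was 1.89 in HSC (adjusted p = 6.09e-06) and 0.54 in stroma (adjusted p = 0.0691). The larger change in HSC was called in 25 of 26 other settings, all but the block for animal numbers, with a difference of 1.36 (SE 0.19, adjusted p = 0.0109).

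Nek6, a kinase of the NIMA family that acts in mitosis, had 47.4, 48.2, 36.2 and 42.02 CPM in vehicle HSC and 167, 132.99, 189 and 165 with rivenprost, with no overlap. Stroma held 6.84 to 13.8 CPM with vehicle and 10.2 to 15.4 with rivenprost. Its difference was 1.63 (SE 0.25, adjusted p = 0.0165), lost in 5 of 26 other settings (adjusted p up to 0.123). That SE was smaller than those of the Nek6 change in HSC (0.31) and in stroma (0.32), which came from other fits. It is therefore not read as a more precise estimate. Nrarp, a target and negative regulator of Notch signalling, had 69.1, 33.9, 21.8 and 23.3 CPM in vehicle HSC and 173, 140.9, 207 and 141.3 with rivenprost. Stroma held 10.4 to 15.8 CPM with vehicle and 9.37 to 14.3 with rivenprost, which overlapped. The difference for Nrarp was 2.49 (adjusted p = 0.021), and it was lost when any of 6 stroma libraries was left out and with the block (adjusted p up to 0.0841).

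Gabarapl1 was the single one of the 7 that fell in HSC. It encodes an ATG8-family protein of autophagosome membranes. It had 287, 297, 320 and 289 CPM in vehicle HSC and 177, 191, 199 and 169 with rivenprost, a fall of 0.70 on the log2 scale (change -0.70, adjusted p = 0.00774). In stroma it had 118.3, 124.5, 99.5 and 98.7 CPM with vehicle and 126.02, 128.8, 135.3 and 131.5 with rivenprost. All rivenprost stroma libraries lay above all vehicle ones, and the change of 0.24 was not called there (adjusted p = 0.42). The difference was -0.92 (adjusted p = 0.0175), lost without the third rivenprost or the fourth vehicle stroma library, with the block and by limma voom (adjusted p up to 0.083).

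Crem encodes a CREB relative whose short isoform ICER represses cAMP target genes. It had 6.69, 6.98, 10.1 and 5.23 CPM in vehicle HSC and 168, 226, 215 and 177 with rivenprost. Stroma held 11.9, 13.2, 10.96 and 11.6 CPM with vehicle and 21.2, 69.4, 71.1 and 26.7 with rivenprost. The groups did not overlap in either fraction, and the stroma rivenprost libraries were spread more widely than those of HSC. The change was 4.81 in HSC (adjusted p = 4.05e-08) and 1.92 in stroma (adjusted p = 0.000649), a difference of 3.01 (SE 0.40, adjusted p = 0.0106), which missed the threshold with the block and by limma voom (adjusted p up to 0.174).

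**Figure D2:**
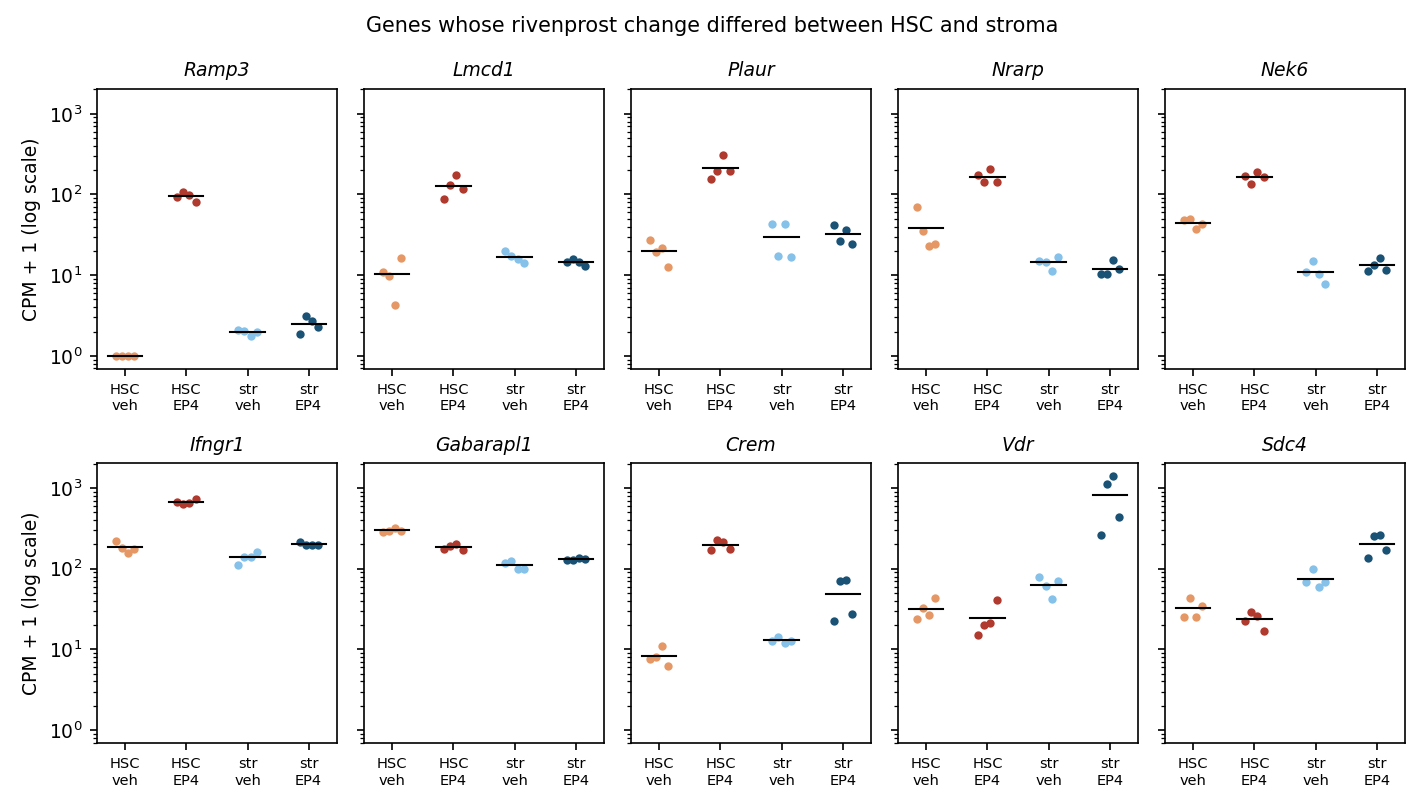
CPM + 1 on a log axis in each library for the 10 genes called in a fraction whose difference was called. Each point is 1 mouse, the bar is the mean of 4, veh is vehicle, EP4 is rivenprost and str is stroma. In the first 6 panels the HSC rivenprost points stand above the vehicle points, and for Vdr and Sdc4 the same is seen in stroma, where Vdr reached 264 to 1410 CPM.

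Stroma held 2 genes with the larger response. Vdr, the vitamin D receptor, had 77.7, 59.98, 41.2 and 69.2 CPM in vehicle stroma and 264, 1130, 1410 and 433 with rivenprost. In HSC it had 22.6, 31.4, 25.3 and 42.9 CPM with vehicle and 14.01, 19.3, 20.01 and 39.7 with rivenprost. The stroma groups were far apart and the HSC groups overlapped. The change was 3.52 in stroma (adjusted p = 0.000397) and -0.39 in HSC (95% interval -1.95 to 1.18), with a difference of -3.85 (adjusted p = 0.0179), lost without the second vehicle stroma library, with the block and by limma voom (adjusted p up to 0.459). Sdc4, syndecan-4, a heparan sulphate proteoglycan of focal adhesions, had 68.3, 96.8, 58.5 and 67.8 CPM in vehicle stroma and 133.8, 254, 258 and 169 with rivenprost. HSC held 24.2 to 42.6 CPM with vehicle and 15.8 to 28.4 with rivenprost. The difference for Sdc4 was -1.85 (adjusted p = 0.0267), and it missed the threshold in 10 of 26 other settings, 7 of which left out 1 stroma library. Stroma is a bulk mixture, in which more cells of a type and more RNA per cell cannot be told apart.

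Both larger stroma values of Vdr, Crem and Sdc4 came from the 2 male mice. After this was seen, the rivenprost change was fitted within each sex, with 2 mice per group and sex. In stroma the change of Vdr was 4.65 in males and 2.25 in females, and that of Crem 2.54 and 1.03. Of the 172 genes that changed in stroma over the whole table (1.13% of 15168, with 0.903% higher), 81.4% had the larger change in males, with a median of 1.44 against 0.87 in females. In HSC the share was 55.2% of 67 genes, with medians of 1.64 and 1.57. The same share over all genes of a table was not taken, so these percentages have no baseline. The genes were called in these same libraries and are no independent replicates. No gene was called for a difference between the sexes in either fraction by edgeR. An unadjusted p under 0.05 was found for 149 of 15168 genes (0.982%) in stroma and 299 of 13566 (2.20%) in HSC. Both shares are smaller than the threshold of 0.05 itself, so the test was conservative and the lack of a call does not show equal changes. Markers of CXCL12-abundant reticular stromal cells summed to 16603 and 24603 CPM in the male rivenprost stroma libraries and 9341 and 10286 in the female ones. With vehicle they summed to 21103 and 10789 CPM in males and 8698 and 7205 in females. Sex and cell make-up cannot be told apart here, and their part in these changes was not tested.

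Next, 15 genes were called in both fractions with no called difference, 13 higher and 2 lower with rivenprost. Rnf125, a ubiquitin ligase, had 124.4, 98.5, 72.5 and 117.3 CPM in vehicle HSC and 345, 433, 392 and 506 with rivenprost. In stroma it had 17.5, 15.03, 16.8 and 17.7 CPM with vehicle and 55.5, 65.6, 65.8 and 47.2 with rivenprost. The groups were apart in both fractions, and the changes of 2.02 and 1.80 left a difference of 0.24 with a 95% interval from -0.25 to 0.74. Its call held in both fractions under all 15 other settings of each.

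Hk2, hexokinase 2, which traps glucose in the cell as its phosphate, had 26.4, 28.3, 35.3 and 26.3 CPM in vehicle HSC and 111.6, 208, 188 and 160 with rivenprost. In stroma it had 33.4, 24.97, 35.8 and 42.9 CPM with vehicle and 54.7, 157, 148 and 58.98 with rivenprost. The groups did not overlap in either fraction. The changes were 2.52 and 1.55, and the difference of 1.09 (95% interval 0.12 to 2.05) was not called (adjusted p = 0.592).

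Nr4a1, an immediate early orphan nuclear receptor whose promoter is printed above with its short sites, had 36.002, 40.8, 10.4 and 14.6 CPM in vehicle HSC and 201, 231, 536 and 376 with rivenprost. Stroma held 60.1, 45.8, 43.9 and 26.95 CPM with vehicle and 213, 201, 336 and 36.3 with rivenprost. One rivenprost stroma library, the fourth, lay within the vehicle range. The changes were 3.70 and 2.08, and the difference of 1.71 was not called (adjusted p = 0.702). Socs3, an inhibitor of cytokine receptor signalling, changed by 4.17 in HSC and 2.23 in stroma, with a difference of 2.06 (95% interval 0.91 to 3.20, adjusted p = 0.184). Its 4 vehicle HSC libraries held 3.56 to 7.98 CPM and the rivenprost ones 57.2 to 178. In stroma the vehicle libraries held 55.999, 215, 68.7 and 61.04 CPM and the rivenprost ones 188, 721, 845 and 189, so the groups overlapped through the second vehicle library.

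The other genes called in both fractions changed by closer amounts. Vegfa, the vascular growth factor, rose by 1.94 in HSC and 2.36 in stroma, and S1pr1, the sphingosine 1-phosphate receptor that guides exit from tissue, by 1.42 and 1.70. Pde4d, a phosphodiesterase that degrades cAMP, rose by 1.36 and 1.40, and its difference of 0.01 had a 95% interval from -0.63 to 0.65. Fosl2, an AP-1 subunit, rose by 1.90 and 1.75, and Rasd1, a Ras-like protein that interferes with G protein signalling, by 2.30 and 1.76. Cables1, a partner of cyclin-dependent kinases, rose by 2.25 and 1.44. The RNA-binding proteins Srsf5, a splicing factor, and Cirbp, known from the response to cold, rose by 1.16 and 0.87 and by 1.43 and 1.27. Mat2a, which makes the methyl donor S-adenosylmethionine, rose by 0.80 and 0.68. The genes that fell were Zfp322a, a zinc finger gene, by 1.58 in HSC and 0.89 in stroma on the log2 scale (changes -1.58 and -0.89), and Trmt1l, related to tRNA methyltransferases, with changes of -1.13 and -0.55. In the fit of the difference on 16 libraries, 11 of the 15 with no called difference and Crem had the higher change in HSC, Pde4d by 0.01. Crem, Rnf125, Cables1 and Srsf5 were the 4 genes called in both fractions with each library left out in turn, and the other 12 lost a call in a fraction without at least 1 library.

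**Figure D3:**
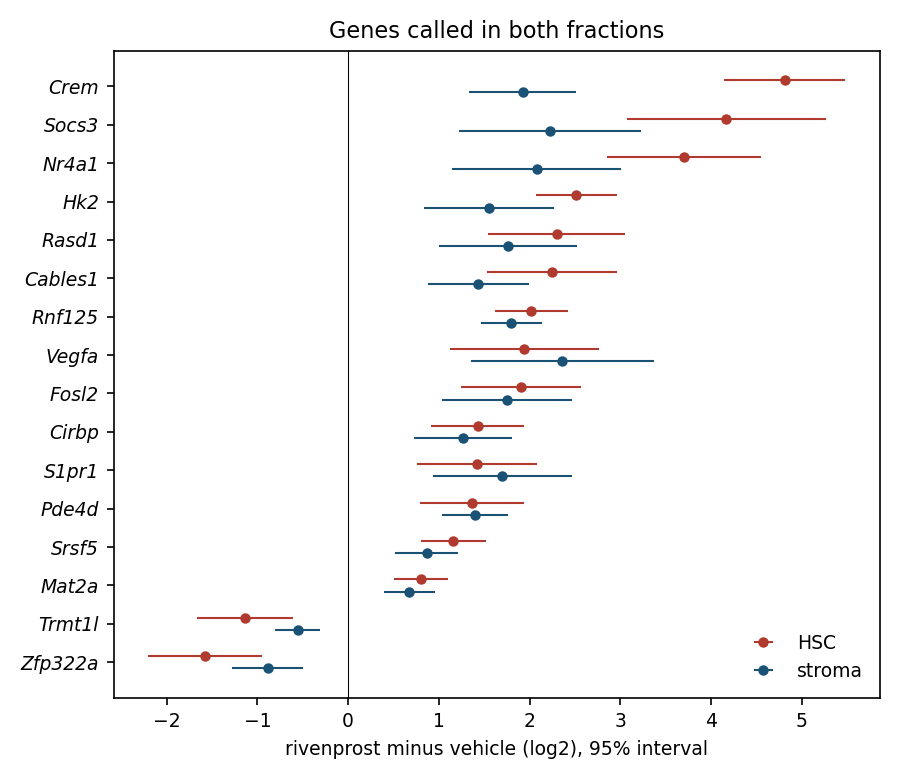
Rivenprost minus vehicle change (log2, horizontal) with its 95% interval for the 16 genes called in both fractions, HSC in red and stroma in blue. Intervals of the 2 fractions overlap for all genes but Crem, which changed by 4.81 in HSC and 1.92 in stroma.

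No gene was called with opposite signs. Among the 67 genes called in HSC, the stroma estimate had the other sign for 14, and in 1 of them, Gabarapl1, its unadjusted 95% interval (0.02 to 0.46) lay past 0. Among the 147 genes called in stroma, the HSC estimate had the other sign for 23, and in none did the unadjusted interval lie past 0. The difference was called for 3 of the 14, Gabarapl1, Lmcd1 and Nrarp, and for 2 of the 23, Vdr and Sdc4.

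The HSC change had the sign of the stroma change for 84.4% of the 147 genes called in stroma, and for 82.4% of those called in stroma alone. The median HSC change was 0.51 over the genes that rose in stroma, against 0.002 over all shared genes. In the other direction, the stroma change had the sign of the HSC change for 53 of 67 genes (79.1%) and for 37 of the 51 called in HSC alone (72.5%). The share with the same sign over all shared genes was not taken, so these percentages have no baseline beside them. The median stroma change was 0.38 over the 54 genes that rose in HSC, against 0.04 over all shared genes. Of the 13 genes that fell in HSC, 8 had a negative change in stroma, and of the 11 that fell in HSC alone, 6. Of the 33 that fell in stroma, 31 had a negative change in HSC. Across the 9062 genes at 5 CPM or more in all 4 groups, which share library and depth, the 2 changes had a Pearson correlation of 0.28 and a Spearman correlation of 0.25, as a description across genes that are no independent replicates. The unadjusted 95% interval of a gene reached a median of 0.61 log2 units to either side of the estimate in HSC. It reached 0.32 in stroma and 0.65 for the difference. A call at an adjusted p under 0.05 needed more than an unadjusted interval clear of 0. Socs3, with a difference of 2.06 and an interval from 0.91 to 3.20, was not called (edgeR adjusted p = 0.184). An uncalled difference therefore does not show equal responses.

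Among stroma responders, the immediate early nuclear receptor Nr4a3 had 7.19, 10.6, 10.1 and 17.4 CPM in vehicle stroma and 138.4, 350, 675 and 111 with rivenprost, a change of 4.58 (adjusted p = 0.000397). In HSC it had 0.0239, 0, 1.25 and 2.67 CPM with vehicle and 2.19, 3.56, 2.95 and 3.67 with rivenprost. The stroma groups were far apart, and at the low HSC level the difference of -2.73 was not called (adjusted p = 0.662). Il6, the cytokine interleukin 6, had 9.53, 17.7, 4.96 and 11.4 CPM in vehicle stroma and 45.3, 330, 352 and 24.1 with rivenprost, with a change of 3.49 (adjusted p = 0.0066). In HSC it had 0 counts in all vehicle libraries and at most 1.42 CPM with rivenprost. Lif, a cytokine of the same family, rose by 2.86 in stroma, where the fourth rivenprost library at 8.33 CPM lay among the vehicle values of 3.43 to 9.55. Myc, the growth-promoting transcription factor, rose by 0.97 in stroma (adjusted p = 0.00869) and had a change of -0.36 in HSC. Arrdc3, an arrestin-domain protein, rose by 1.29 in stroma, and its change in HSC was -0.08. In the fit of the 8 stroma libraries alone, in which the spread was not shared with the other stroma groups, 2 genes were called in stroma in place of 172.

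Among HSC responders, Pdcd1, which encodes the immune checkpoint receptor PD-1, had 0.311, 0, 0 and 0 CPM in vehicle HSC and 25.7, 18.2, 30.9 and 30.8 with rivenprost. Stroma held 0.0414 to 0.175 CPM with vehicle and 0.418 to 0.891 with rivenprost. The groups were apart in both fractions, and the difference was not called (adjusted p = 0.0749). Fos, the AP-1 subunit, had 26.9, 6.89, 9.24 and 13.04 CPM in vehicle HSC and 28.4, 67.9, 122.9 and 70.3 with rivenprost, with a change of 2.40 (adjusted p = 0.0163). Stroma held 255 to 587 CPM with vehicle and 168 to 678 with rivenprost, which overlapped. Pde4b, which degrades cAMP, had 195 to 277 CPM in vehicle HSC and 505 to 777 with rivenprost. In stroma its groups overlapped, at 48.9 to 95.7 and 34.7 to 107 CPM. Dusp5, a phosphatase of the kinase ERK, changed by 2.09 in HSC and 0.52 in stroma, and Egln3, a prolyl hydroxylase of the oxygen-sensing pathway, by 2.16 and 0.10. The transcription factor Foxo1 rose by 1.30 in HSC (adjusted p = 0.0311), and Cited2, a transcriptional coregulator, fell (change -1.30, adjusted p = 0.037). Gimap6 and Gimap1, GTPases of lymphoid cells, fell in HSC by 1.10 and 0.88 on the log2 scale (changes -1.10 and -0.88), with changes of 0.29 and 0.13 in stroma. Of 15 other settings, the HSC call was lost in 7 for Foxo1, 8 for Cited2, 6 for Gimap1 and 5 for Fos. None of these genes had a called difference.

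The genes of the pathway were then read by role. Over all shared genes, 0.416% rose in HSC and 0.878% in stroma. Of 9 shared genes for G proteins and adenylyl cyclases, 0 were called in either fraction. Of 20 for protein kinase A subunits and anchors, Prkar1a, a regulatory subunit, rose in stroma (0.35, adjusted p = 0.0448, lost in 8 of 15 other settings) and had a change of 0.23 in HSC. Of 11 cAMP phosphodiesterases, Pde4d rose in both fractions and Pde4b in HSC. Of 38 cAMP and CREB response genes, 12 rose in HSC and 13 in stroma, 6 of them in both, and none fell. Their median change was 1.12 in HSC and 0.91 in stroma, against 0.002 and 0.04 over all shared genes, and the median difference was 0.30. Crem was the single member with a called difference. The list was drawn up with earlier results of these data known, so its direction is a description.

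Within that list some members other than Crem had the larger estimate in HSC and others in stroma. Those named here were chosen after their values were seen, and a split by fraction is not shown. Cebpb, a C/EBP transcription factor, rose by 2.86 in HSC and had a change of 1.15 in stroma (adjusted p = 0.0617). Sik1, a salt-inducible kinase that restrains CREB coactivators, rose by 1.18 in HSC with 0.08 in stroma, and the kinase Sgk1 by 1.71 with 0.53. In stroma, Irs2, an adaptor of the insulin receptor, rose by 1.84 with 0.40 in HSC, Nfil3, a basic leucine zipper repressor, by 1.67 with -1.62 in HSC, and Gem, a small GTPase, by 1.92 with 0.89 in HSC. These differences were not called (adjusted p from 0.132 to 0.869). Of 15 other settings, the call in 1 fraction was lost in 6 for Sik1 and 7 for Gem.

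**Figure D4:**
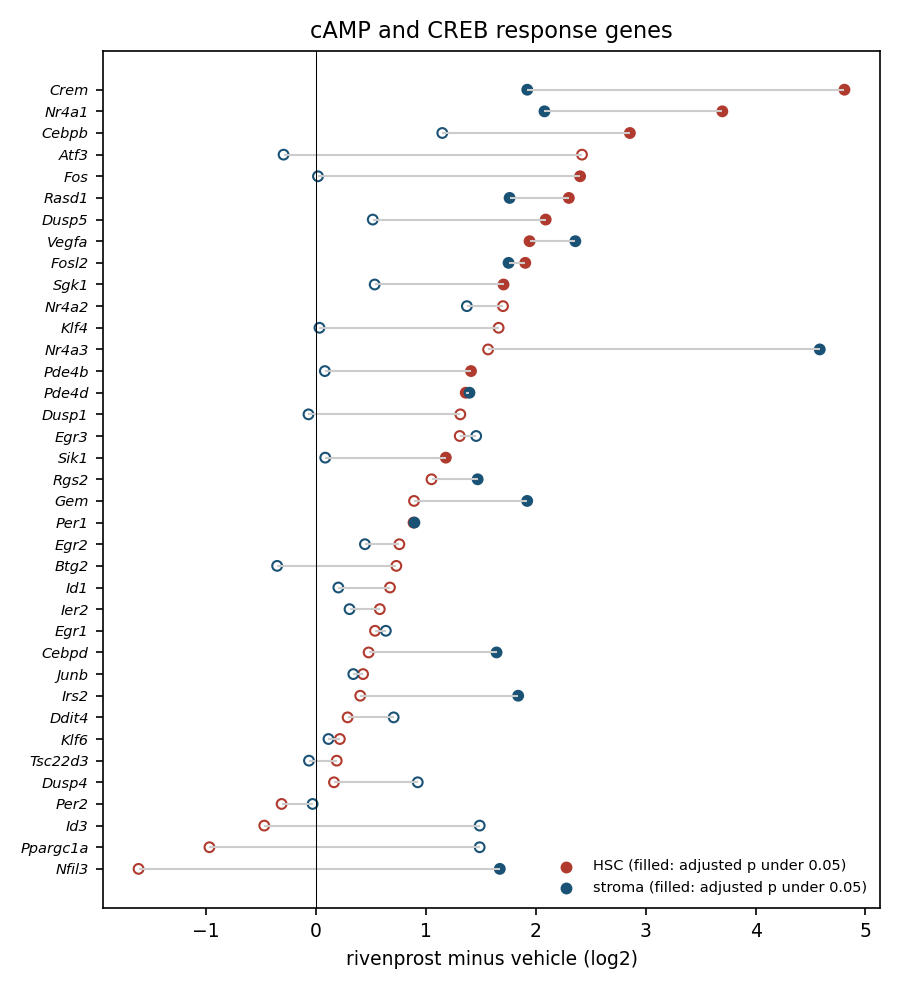
Rivenprost minus vehicle change (log2, horizontal) in HSC (red) and stroma (blue) for 37 of the 38 shared cAMP and CREB response genes, with filled points for an adjusted p under 0.05. Akap12, with 0 counts in all vehicle HSC libraries, is left out. Filled points in both colours are seen for 6 genes, and Crem, at the top, is the member with a called difference.

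Further lists were read in the same way. Over all shared genes, 0.416% rose and 0.1% fell in HSC, and 0.878% rose and 0.254% fell in stroma. The medians over all shared genes were 0.002 in HSC and 0.04 in stroma. A single call in a list was not read as a result about the list. Of 30 immediate early genes, 3 rose in HSC and 6 in stroma, with medians of 0.73 and 0.33. Of 12 AP-1 subunits, Fos and Fosl2 rose in HSC and Fosl2, Maff and Fosl1 in stroma, where Maff changed by 1.58 and Fosl1 by 2.05 and each call was lost in 6 of 15 other settings. Of 15 genes for SOCS proteins and the interleukin 6 family, Socs3 rose in both fractions, and Il6 and Lif in stroma. Of 44 targets of p53, a transcription factor activated by irradiation, which all 4 groups received, 0 were called in HSC and Ppm1d, a phosphatase that dampens p53, fell in stroma (-0.45, adjusted p = 0.0469, lost in 9 of 15 other settings). The medians of the p53 list were -0.39 in HSC and -0.22 in stroma. Mdm2, which degrades p53, had changes of -0.82 and -0.57, neither of them called. Of 31 NF-kB and inflammatory cytokine genes, Il6 was called in stroma and 0 in HSC, where Il1b had a change of 3.95 (adjusted p = 0.0978). Of 8 GIMAP genes, 2 fell in HSC and 0 were called in stroma, with medians of -0.49 and 0.12.

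The 25 genes with a called difference but no call in either fraction were mostly near 0 in HSC. Of these, 19 were under 5 CPM in both HSC groups, 15 had 0 counts in all vehicle HSC libraries and 2 had 0 counts in all rivenprost HSC libraries. Separate fits per fraction called 1 of the 25 and limma voom 2. Jag1, a Notch ligand, had 0.597, 0.0700, 0.742 and 0.261 CPM in vehicle HSC and 9.37, 8.15, 7.47 and 6.56 with rivenprost. Stroma held 8.04, 29.5, 9.86 and 9.68 CPM with vehicle and 3.68, 7.505, 11.9 and 10.8 with rivenprost. The HSC groups were apart and the stroma groups overlapped, with a difference of 5.16 (adjusted p = 0.0179), lost in 8 of 26 other settings. Cd34, a surface glycoprotein of progenitors and endothelium, averaged 407 and 534 CPM in vehicle and rivenprost HSC and 21.3 and 12.7 CPM in stroma, with a difference of 1.15 (adjusted p = 0.0304), lost in 12 of 26. Ly6c1, an endothelial and lymphoid surface antigen, had 0 counts in all vehicle HSC libraries, and its difference was at least 5.81 (adjusted p = 0.021), lost in 11 of 25 other settings (adjusted p up to 0.722).

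**Figure D5:**
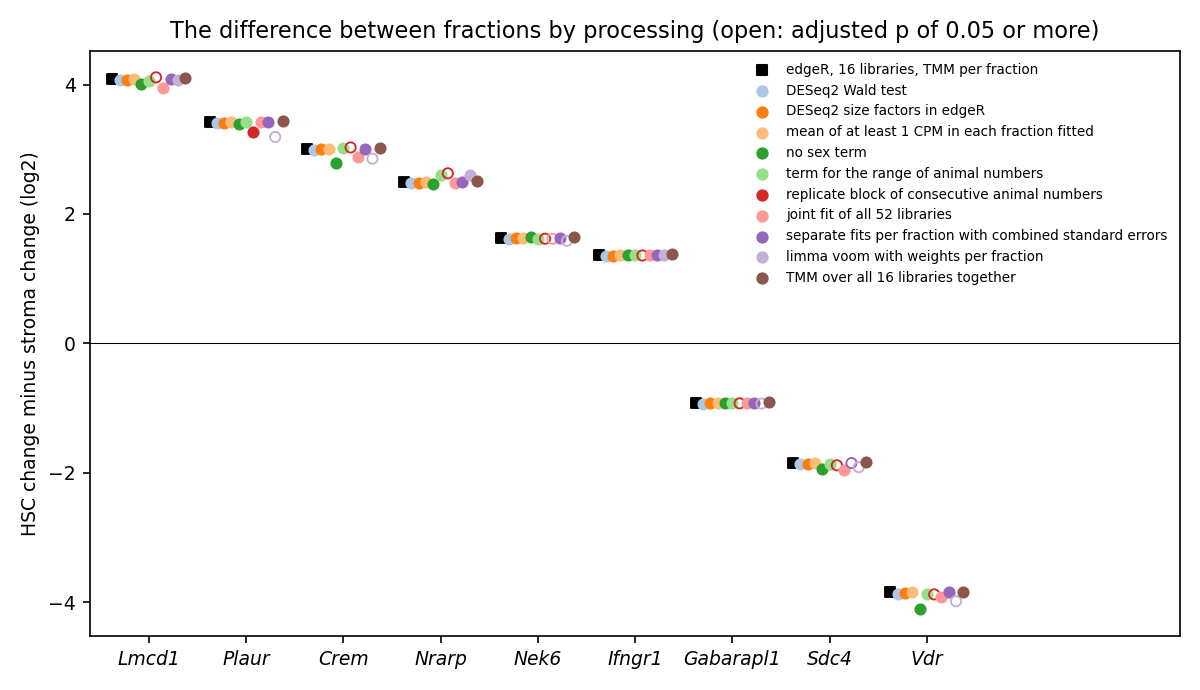
HSC change minus stroma change (log2, vertical) for 9 genes under each processing alternative other than leaving out a library. Filled symbols have an adjusted p under 0.05, open ones do not, and the square is the value reported. The values of a gene lie close together, and the open symbols are those of the block for animal numbers for all genes but Plaur, limma voom for 6 genes, the joint fit for Nek6 and the separate fits for Sdc4.

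Genes in 1 table alone cannot enter the difference. None of the 575 genes of the HSC table alone was called, and 25 of the 2177 of the stroma table alone were, 23 higher and 2 lower. Over the whole tables, 0.494% of the HSC genes and 1.13% of the stroma genes were called. The stroma count is near that share, so these counts are not read as particular to genes of 1 table. Adamts4, a metalloproteinase that cleaves aggrecan, had 8.66, 9.89, 4.69 and 12.1 CPM in vehicle stroma and 52.4, 502, 392 and 121.02 with rivenprost, a change of 4.79 (adjusted p = 0.000649). Snai1, a repressor active in mesenchymal transitions, had 4.26 to 6.97 CPM with vehicle and 14.4 to 89.7 with rivenprost. The groups did not overlap for either gene, and the second and the third rivenprost library, both male, were the highest for each.

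Cell type markers were read in the same libraries. The 17 HSC markers summed to 3914 to 4762 CPM in HSC and 734 to 1248 in stroma. The markers of CXCL12-abundant reticular stromal cells summed to 7205 to 24603 CPM in stroma and to 91.1 to 110.8 CPM in vehicle and 56.7 to 82.5 in rivenprost HSC, without overlap, where 8 of 14 were measured, 0 were called and Adipoq was at 0. Within stroma, monocyte and macrophage markers summed to 2414 to 2971 CPM with vehicle and 1683 to 2154 with rivenprost, without overlap, and 0 of 14 were called. Osteoblast markers summed to 6702 to 17552 CPM with vehicle and 4571 to 9850 with rivenprost. Granulocyte markers summed to 2653 to 13549 and 3023 to 6355 CPM. The part of these shifts in the changes of either fraction was not tested. Within HSC the monocyte and macrophage sums overlapped, at 747 to 878 and 741 to 910 CPM.

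For rivenprost against vehicle, the authors' deposited table had an FDR under 0.05 for 235 genes of stroma, of which 70.2% were also called here. Of the HSC genes with that FDR in the authors' deposited table, 58.9% (66 genes) were also called here. By the same FDR, 21 genes of the authors' deposited table passed in both fractions, all with the same sign, and 16 of them are the genes called in both here. Ifngr1, called here in HSC and not in stroma, was also among the 21, with an authors' FDR of 0.04 in stroma.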

How the data were processed

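The values analysed are raw counts per gene, which the authors deposited without normalisation, per the file headers. Named in the submitters' processing notes are the build mm10, edgeR 3.36.0, Subread 1.5.1 with featureCounts, STAR 2.5 and FastQC 0.11.5. RNA input was 1 ng for HSC (SMART-Seq v4, Nextera XT) and 100 ng for stroma (KAPA mRNA HyperPrep), per the labels' protocols. The kits and the tables therefore differ between the fractions. Whether counting used strand was not stated, and overlapping or antisense genes may share reads. The authors also deposited log2 fold changes with an FDR, an adjusted p-value, per the file headers, and 52 columns of log2 CPM per library, which were not used.

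The deposited counts went into the quasi-likelihood test of edgeR 4.0.16 (R 4.3.3, TMM factors). Each fraction's change came from all its libraries (20 HSC, 32 stroma) with a term per group and for sex. The difference was fitted on the 16 libraries, with TMM and sex within each fraction, which gives each gene 1 spread for both fractions. These fits left 14, 23 and 10 residual degrees of freedom. The adjusted p is Benjamini-Hochberg over all genes of a fit. A p-value sets a change against the spread between mice, estimated from all libraries of the fit and moderated across genes. DESeq2 1.42.0 and limma 3.58.1 served as alternatives. The code was tested on simulated data. CPM use TMM-adjusted library sizes, and a fold against a group at 0 uses a floor of 3 counts over the group. Named were up to 10 genes with the smallest p of the difference among those called for it and in HSC, the same for stroma, up to 12 called in both fractions by the larger of their p-values, the 4 prostaglandin E2 receptor genes, up to 4 genes per list, and up to 3 of each table alone, of which 1 is not reported here. The members and the 32 gene lists were chosen with earlier results of these data known. Sdc4, Lmcd1 and others named outside a list follow that rule, and S1pr1, Trmt1l, Cebpb, Sik1, Sgk1, Irs2, Nfil3 and Gem were named after their values were seen.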

Additional observations from a re-analysis of the deposited data

Results flagged for a closer look

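A test of the difference between HSC and stroma picked out 13 named genes, given here as HSC change minus stroma change in log2 units. The difference was 11.66 for Ramp3 with the floor of 3 counts. It was 4.08 for Lmcd1, 3.01 for Crem, 1.36 for Ifngr1, 3.42 for Plaur, 1.63 for Nek6, -0.92 for Gabarapl1 and 2.49 for Nrarp. It was -3.85 for Vdr and -1.85 for Sdc4. Among genes called in neither fraction it was 5.16 for Jag1, 1.15 for Cd34 and, with the same floor, 5.81 for Ly6c1.

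A library standing apart from the other 3 of its group was found in 6 groups of 4, which is 5.22% of those examined, and chance alone picks out about 1 in 20. Ifngr1 stood at 216 CPM in 1 rivenprost stroma library against a median of 194 in the others. Rasd1 reached 62.8 CPM in 1 rivenprost HSC library, against a median of 28.02, and 2.46 CPM in 1 vehicle stroma library, against 1.84. Ptger2 had 1.28 CPM in 1 vehicle HSC library and 0 in the other 3. Trmt1l stood at 35.2 CPM in 1 rivenprost HSC library against a median of 27.5. Socs3 stood at 215 CPM in 1 vehicle stroma library against a median of 61.0.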

How the results depend on the processing

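The labels describe no pairs, but animal numbers run in sets with 1 mouse of each treatment and of 1 sex, and a replicate block on these sets was chosen after seeing the data. Within a set, deviations of the rivenprost and vehicle libraries from their group means had correlations of -0.0379 to 0.127 in HSC and 0.0572 to 0.513 in stroma, and not every library correlated best with its own set. Each set is of 1 sex and sex was not removed from the deviations. The correlations therefore cannot tell set from sex, and they do not decide whether the sets pair the mice. The block gave 6 genes for the difference, 4 of them among the 35 (Atp7b, Plaur, Ramp3 and Scara5), 73 in HSC, 379 in stroma and 19 in both, with 2 called in HSC and 1 in stroma together with the difference. Of the 13 named differences the other 11 had adjusted p from 0.0548 to 0.0887 with it. The difference was called for 35 genes in the fit reported, 221 by DESeq2, 21 with a mean of at least 1 CPM, 65 in the joint fit of all 52 libraries, 11 in separate fits and 7 by limma voom, and for 9 to 75 with 1 library left out. HSC calls numbered 67, against 234 by DESeq2 and 41 to 70 with 1 library left out. Stroma calls over the whole table numbered 172, against 347 by DESeq2, 330 with a term for the range of animal numbers, 2 in the fit of the 8 libraries alone and 49 to 195 with 1 library left out. Genes called in both fractions numbered 16, against 33 by DESeq2, 1 in the fits of 8 libraries and 6 to 17 with 1 library left out, and opposite directions stayed at 0 in every fit. Genes called in HSC and for the difference, but not in stroma, numbered 7, against 78 by DESeq2, 18 in the joint fit, 4 by limma voom, 16 at an adjusted p under 0.1 and 5 to 18 with 1 library left out. The matching stroma count of 2 became 18, 7, 0 and 7 under those 4 settings, 4 with the animal range, 1 in separate fits, 0 in the fits of 8 libraries and 0 to 6 with 1 library left out. No named call turned its direction under any alternative run. The cause of these shifts was not tested. Counts near 0 in HSC limit the difference, as do 4 mice per group.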

Other observations

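Hey1, a transcriptional repressor chosen after its values were seen, had 0 counts in all vehicle HSC libraries and a mean of 3.76 CPM with rivenprost. In stroma Hey1 averaged 3.30 CPM with vehicle and 1.89 with rivenprost.

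In stroma the strongest responders by p also held Adamts1, a metalloproteinase, with a change of 3.78, Tnfsf11, the osteoclast factor RANKL, with 3.57, and Thbd, thrombomodulin, with 3.65. Their HSC changes were 5.33, 0.29 and -0.71, with vehicle means of 0.633, 1.81 and 8.61 CPM, and none had a called difference (adjusted p from 0.0937 to 0.932). These genes were chosen after their values were seen.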
